A study of Caenorhabditis elegans with 6 samples.

Results

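Genes that activate, oxidise, bind and release fatty acids were measured with Affymetrix single-colour arrays in RNA of whole Caenorhabditis elegans at L4, the final larval stage. They are the genes whose symbol on the array platform begins with acs, acdh, acox, lbp, lipl or lips followed by a number, each read from its probe set with the highest mean. The rule gave 73 of the 17118 genes measured: 23 acyl-CoA synthetase (acs) genes, 12 acyl-CoA dehydrogenase (acdh) genes, 5 acyl-CoA oxidase (acox) genes, 9 lipid binding protein (lbp) genes, 8 lysosomal lipase (lipl) genes and 16 genes of the other lipase family (lips). The animals were alg-1(gk214) mutants, which lack normal function of an Argonaute protein that carries microRNAs, and N2 wild type worms, with 3 arrays of each genotype. Both genotypes were synchronized and grown at 25 °C on OP50 bacteria, and the replicates are labelled independent.

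A fatty acid must be joined to coenzyme A before a cell can use it, and acyl-CoA synthetases do this. Acyl-CoA dehydrogenases catalyse the entry step of beta-oxidation in mitochondria, and acyl-CoA oxidases catalyse the matching step in peroxisomes, where C. elegans also shortens the side chains of its ascaroside pheromones. Lipases release fatty acids from stored or ingested fat, those of the lipl family inside lysosomes, and lipid binding proteins carry fatty acids within or between cells. In the worm much of this metabolism takes place in the intestine and the epidermis, the main sites of fat storage.

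The arrays separated by genotype. Pearson correlations over all probe sets were 0.998 within the mutant, 0.994 to 0.996 within the wild type and 0.968 to 0.976 between genotypes. On the GAPDH control probe sets, the difference between the 3′ and 5′ ends was −0.58 log2 on wild type replicate 3 and −0.23 to −0.14 on the other arrays. Without that array, 17 of the 73 genes were called higher and 18 lower. The mutated gene itself had 6.03 ± 0.11 log2 intensity in the mutant and 6.76 ± 0.10 in the wild type (SD, n = 3 each; limma adjusted p = 0.000245). Where its probes lie relative to the gk214 lesion was not determined here.

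Of the 73 genes, 18 rose and 20 fell in the mutant at a limma adjusted p below 0.05, and 35 did not pass. Among all genes measured 34.6% passed, 14.4% higher and 20.1% lower, against 52.1% of the fatty acid genes. The fatty acid genes were brighter, however, with a median signal at the 68.8th percentile against the 49.8th for all genes. Above the median signal, 49.2% of all genes passed, and 63.3% of the 49 fatty acid genes there. Signal here is the mean over all 6 arrays, so a gene's own rise or fall moves its rank. The genes acdh-6 and acs-3 lay above the median with wild type means of 5.16 and 5.65 log2, under the array medians of 6.01 to 6.05. Shares above the median signal are thus not independent of the differences. The median difference of the 73 genes was 0.01 log2, beside −0.06 over all genes, and the family medians ran from −0.23 for acdh to 0.39 for lipl. Among the called genes, changes of 2-fold or more were 9 rises and 3 falls. Over all 17118 genes such rises also outnumbered such falls, with 549 (3.21%) higher and 331 (1.93%) lower. The mutant and wild type values did not overlap for 49 genes, or 67.1%, against 48.7% of all genes. Above the median signal these shares were 79.6% and 64.0%. How the arrays are scaled bears on the smaller falls. Centring each array on the hybridization controls shifted the median of all probe sets by 0.14 log2. It left 26 of the 73 genes higher and 10 lower. The rises then made up 72.2% of the calls, against 47.4% with the values as deposited.

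**Figure D1:**
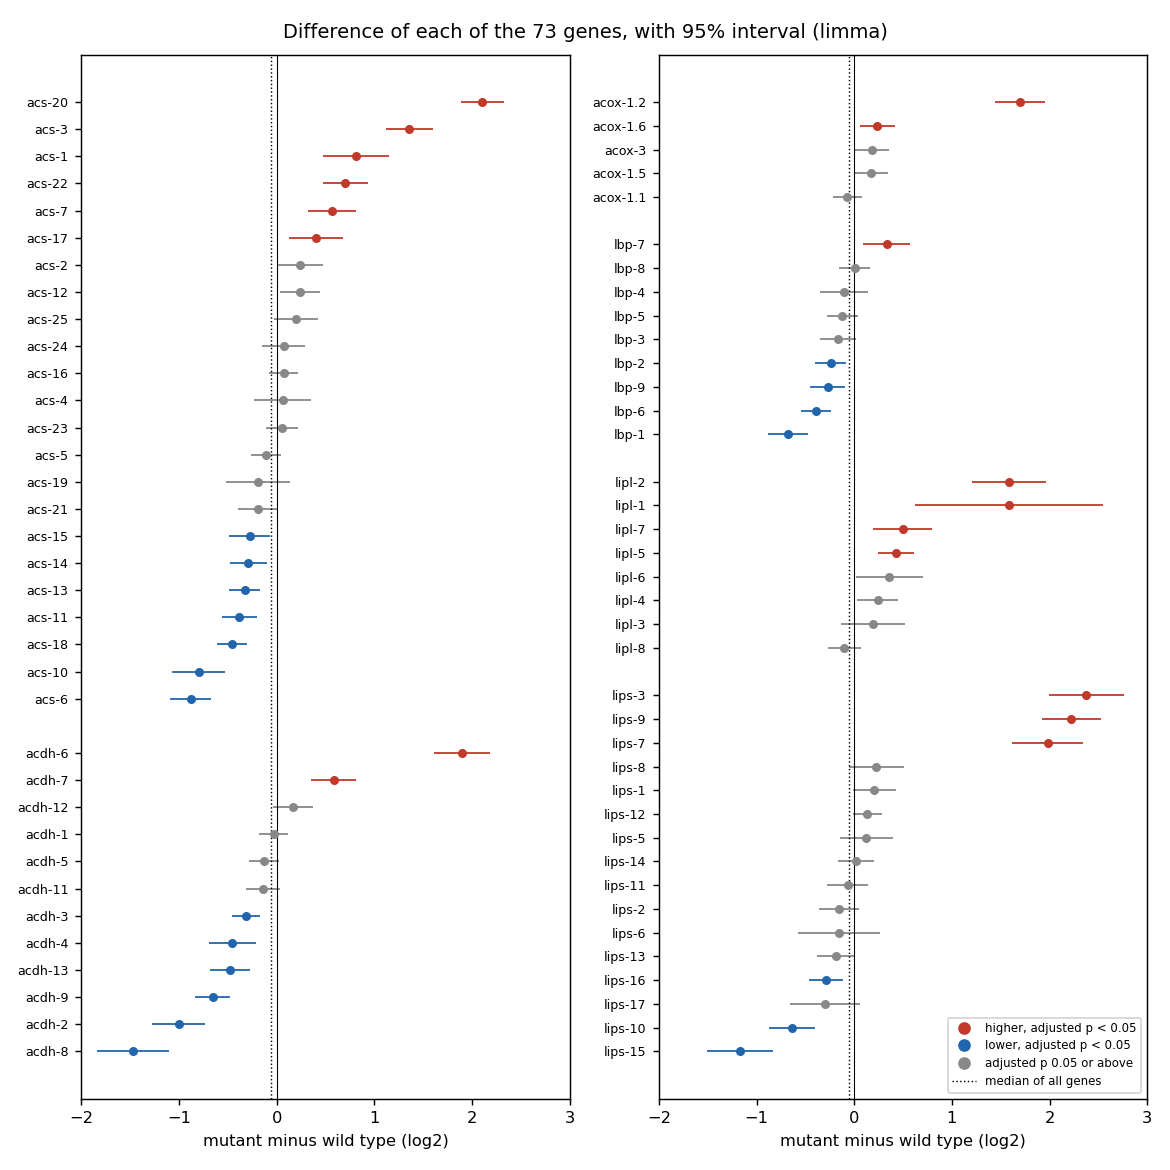
Mutant minus wild type difference (log2, horizontal axis) of each of the 73 genes, ordered within its family, with the 95% interval from limma. Red points were higher and blue points lower at an adjusted p below 0.05, grey points did not pass, and the dotted line is the median of all genes; the 9 genes with rises above 1 log2 come from the acs, acdh, acox, lipl and lips families, and no lbp gene reaches that size.

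Among the acyl-CoA synthetases, 6 genes rose and 7 fell of 23 measured, with a median difference of 0.06 log2 (8 higher and 3 lower after centring on the hybridization controls). The steepest rise was that of acs-20, whose product resembles the mammalian fatty acid transport proteins and is known to be needed for the barrier of the worm's cuticle. It read 10.16, 10.22 and 10.20 log2 in mutants, against 8.0004, 8.31 and 7.95 in N2 worms. The nearest values of the groups were 1.85 log2 apart, and the difference was 2.11 (SE 0.099, 4.31-fold, limma adjusted p = 1.29e-06). This probe set carries the ending _s_at, which marks probes that match several transcripts. The other acs-20 probe set, without that ending, differed by 2.41 (SE 0.14, adjusted p = 4.45e-06). Its relative acs-22, also of the fatty acid transport protein type, rose less, to 9.75 ± 0.14 log2 in mutants, against 9.05 ± 0.15 in N2 worms (SD, n = 3 each; difference 0.70, SE 0.10, adjusted p = 0.000826). The single acs-22 probe set also carries the _s_at ending, so signal from a related transcript cannot be told apart from its own.

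The gene acs-3, known to act in the epidermis on fat uptake together with the nuclear receptor NHR-25, read 7.11, 6.84 and 7.07 log2 in mutants, against 5.82, 5.58 and 5.54 in N2 worms. The groups were separated by 1.02 log2 at their nearest values, with a difference of 1.36 (SE 0.10, 2.57-fold, adjusted p = 2.31e-05). The gene acs-1, whose product activates branched-chain fatty acids, had 10.54, 10.48 and 10.59 log2 in mutants, against 10.09, 9.68 and 9.41 in N2 worms. Its wild type values spread more widely than its mutant values, and the difference of 0.81 (SE 0.15, adjusted p = 0.00305) recurred on its other probe set (0.69, adjusted p = 0.00206). A smaller rise was that of acs-7, an enzyme of ascaroside modification, at 8.50 ± 0.19 log2 in mutants, against 7.93 ± 0.11 in N2 worms (difference 0.57, adjusted p = 0.00354). The remaining call, acs-17, singled out after the values were seen, had a difference of 0.40 (adjusted p = 0.0317). That call was lost without mutant replicate 1 or 3 or wild type replicate 1, with adjusted p up to 0.123, while its other probe set gave 0.50 (adjusted p = 0.018).

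The gene acs-2 encodes a mitochondrial synthetase that is widely used as a reporter of the fasting response under the nuclear receptor NHR-49. It read 11.43, 11.11 and 11.27 log2 in mutants, against 10.87, 11.07 and 11.14 in N2 worms. The groups overlapped, and the difference of 0.24 (95% interval 0.01 to 0.48) did not pass (adjusted p = 0.107). Once arrays were centred on the hybridization controls it passed. The other acs-2 probe set gave 0.66 with a wide error (SE 0.35, adjusted p = 0.184).

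Of the synthetase genes that fell, acs-6 had 4.79, 4.55 and 4.59 log2 in mutants, against 5.60, 5.39 and 5.58 in N2 worms, a difference of −0.88 (SE 0.093, adjusted p = 0.000157). The values of acs-10 were 5.06, 5.18 and 5.15 in mutants, against 6.22, 5.74 and 5.84 in N2 worms, a difference of −0.80 (SE 0.12, adjusted p = 0.00102). Neither pair of groups overlapped, and both genes lay below the median signal of the array. The other 5 falls, of acs-11, acs-13, acs-14, acs-15 and acs-18, which were named after their values were seen, ranged from −0.46 to −0.28. With centring on the hybridization controls only acs-18 of these passed. The acs-13 call also rested on the probe set used, since the other acs-13 probe set differed by 0.08 (adjusted p = 0.712). Leaving out single arrays removed the call of acs-14 (without mutant replicate 2 or 3 or wild type replicate 1 or 2, adjusted p up to 0.0917) and that of acs-15 (without mutant replicate 1 or 2 or wild type replicate 2 or 3, adjusted p up to 0.171), which quantile normalization removed too. The 10 synthetase genes that did not pass differed by −0.19 to 0.24 log2.

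The acyl-CoA dehydrogenases had the largest share of falls of the 6 families, 6 of 12, and 2 genes rose. The median was −0.23 log2. With the hybridization controls as the scale it was −0.09, with 4 genes lower and 3 higher. Even so, one of the steepest rises of the 73 genes was that of acdh-6. It read 7.07, 7.06 and 7.06 log2 in mutants, against 4.86, 5.22 and 5.41 in N2 worms. The mutant values were nearly identical and the wild type values low and scattered, with a difference of 1.90 (SE 0.13, 3.73-fold, adjusted p = 1.03e-05). The other rise, of acdh-7, was 0.58 (SE 0.10, adjusted p = 0.00219), with 10.72 ± 0.09 log2 in mutants, against 10.13 ± 0.18 in N2 worms (SD, n = 3 each). Another acdh-7 probe set gave 0.63 (adjusted p = 0.000503).

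The largest fall of the 73 genes on the log2 scale was that of acdh-8, with 5.19, 5.36 and 5.11 log2 in mutants, against 7.08, 6.36 and 6.63 in N2 worms. The groups did not overlap, with a gap of 1.001 log2, and the difference was −1.47 (SE 0.16, 2.77-fold lower, adjusted p = 0.000204). The values of acdh-2 were 8.11, 8.35 and 8.40 in mutants, against 9.30, 9.50 and 9.07 in N2 worms, 2.01-fold lower in the mutant (SE 0.12 log2, adjusted p = 0.000312). Its other probe set, without a shared ending, fell by 0.65 (adjusted p = 0.0196). The gene acdh-9 had 9.22, 9.22 and 9.23 log2 in mutants, against 10.01, 9.82 and 9.80 in N2 worms (difference −0.66, SE 0.078, adjusted p = 0.000296).

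Smaller falls were those of acdh-13 (−0.48, adjusted p = 0.00353) and acdh-4 (−0.45, adjusted p = 0.0102). The sixth fall was that of acdh-3 (−0.31, adjusted p = 0.00557), named after its values were seen. With centring on the hybridization controls, acdh-3 and acdh-4 did not pass, at −0.17 and −0.32. The gene acdh-1, whose product acts in the propionate shunt and whose expression responds to vitamin B12, read 12.93, 12.92 and 12.91 log2 in mutants, against 12.99, 12.96 and 12.90 in N2 worms. These values overlapped, with a difference of −0.03 (95% interval −0.18 to 0.12, adjusted p = 0.751). In all, 7 of the 12 dehydrogenase genes were read from probe sets with an ending for shared probes.

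Among the peroxisomal acyl-CoA oxidases, acox-1.2 stood apart from the others in the size of its difference. It read 9.25, 9.31 and 9.30 log2 in mutants, against 7.86, 7.44 and 7.46 in N2 worms. The mutant values were tightly grouped and clear of the wild type by 1.38 log2, with a difference of 1.70 (SE 0.11, 3.25-fold, adjusted p = 1.05e-05). The neighbouring gene acox-1.1, named after its values were seen, encodes an oxidase that shortens ascaroside side chains, and it had 9.27, 9.20 and 9.21 log2 in mutants, against 9.27, 9.32 and 9.29 in N2 worms. Its difference was −0.07 (95% interval −0.22 to 0.08, adjusted p = 0.464).

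The only other oxidase call, acox-1.6, was a difference of 0.24 (adjusted p = 0.0481) with 8.30 ± 0.08 log2 in mutants, against 8.07 ± 0.09 in N2 worms. It was lost without any one of mutant replicates 1, 2 and 3 or wild type replicates 1 and 2, with adjusted p up to 0.159, and with quantile normalization. The gene acox-1.5 differed by 0.17 (adjusted p = 0.114), with 10.80 ± 0.05 log2 in mutants, against 10.63 ± 0.10 in N2 worms, and acox-3, named after its values were seen, by 0.18 (adjusted p = 0.115). Both passed when arrays were centred on the hybridization controls. A probe set shared by acox-1.3 and acox-1.4 was left out because it names more than 1 gene.

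Lipid binding protein genes changed little in size. Of 9 measured, 4 fell and 1 rose, with a median of −0.17 log2, or −0.03 and 1 fall on the scale of the hybridization controls. The clearest fall was that of lbp-1, which encodes a binding protein of the secreted type, with 8.09, 8.07 and 8.14 log2 in mutants, against 8.95, 8.76 and 8.63 in N2 worms. The difference was −0.68 (SE 0.091, adjusted p = 0.000551), and it was the only fall of this family to pass under every scaling tried. Its neighbours on the chromosome, lbp-2 and lbp-3, which encode the same type of protein, differed by −0.24 (adjusted p = 0.0274) and −0.17 (adjusted p = 0.149); lbp-3 was picked for its position, with its values known.

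The gene lbp-6 read 12.19, 12.17 and 12.27 log2 in mutants, against 12.63, 12.59 and 12.59 in N2 worms, a difference of −0.39 (SE 0.067, adjusted p = 0.00214). With centring on the hybridization controls it was −0.25 (adjusted p = 0.0657). The fall of lbp-9 was −0.27 (adjusted p = 0.0271), with 11.31 ± 0.03 log2 in mutants, against 11.58 ± 0.12 in N2 worms. The call of lbp-2 was lost without any one of the 3 mutant arrays or wild type replicate 1 (adjusted p up to 0.0942), and that of lbp-9 without any one of the mutant arrays or wild type replicate 3 (adjusted p up to 0.0962). The rise, of lbp-7, was 0.33 (adjusted p = 0.0415), with 9.97, 9.95 and 10.04 log2 in mutants, against 9.71, 9.84 and 9.42 in N2 worms. It too was lost without any one of the mutant arrays or wild type replicate 3, with adjusted p up to 0.134, and with quantile normalization. The gene lbp-8, also named after its values were seen, encodes a carrier of a lipid signal out of lysosomes in the intestine. It gave the signal of a dim probe set, at the 0.745th percentile of all probe sets, where changes are hard to detect.

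No lysosomal lipase gene fell, and 4 of 8 rose, with a median of 0.39 log2. Several of these genes are known to be induced by fasting under the transcription factor HLH-30. The values of lipl-2 were 8.47, 8.09 and 8.07 log2 in mutants, against 6.99, 6.40 and 6.49 in N2 worms, and a gap of 1.08 log2 separated the groups. The difference was 1.58 (SE 0.17, 3.00-fold, adjusted p = 0.000141). The values of lipl-1 were 8.66, 8.18 and 8.25 in mutants, against 7.94, 5.91 and 6.49 in N2 worms. Wild type replicate 1 lay near the mutant, which gave this gene the widest wild type spread of the 73, with an SD of 1.05 log2.

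The lipl-1 difference was as large as that of lipl-2, at 1.58, but with an SE of 0.43 (adjusted p = 0.0193). Without wild type replicate 1 it was 2.16 (adjusted p = 4.89e-05). Without mutant replicate 1 or 3 or wild type replicate 3 the call was lost (adjusted p up to 0.0766), and so it was with an intensity trend and a robust prior (adjusted p = 0.062). The gene lipl-5 rose by 0.43 (SE 0.080, adjusted p = 0.00339), with 11.79, 11.70 and 11.80 log2 in mutants, against 11.47, 11.27 and 11.26 in N2 worms.

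The rise of lipl-7 was 0.50 (SE 0.13, adjusted p = 0.0197), at 7.60 ± 0.21 log2 in mutants, against 7.10 ± 0.22 in N2 worms. It was lost without mutant replicate 1 or wild type replicate 2, with adjusted p up to 0.0764. The 4 lipl genes that did not pass all lay below the median signal and differed by −0.10 to 0.36 log2. Among them was lipl-4, known for extending lifespan when overexpressed in the intestine and named after its values were seen. It differed by 0.24 (95% interval 0.03 to 0.45, adjusted p = 0.0738), at the 15.5th percentile of signal. It passed under centring on the hybridization controls and under quantile normalization.

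The lips family held the steepest rise of the 73 genes and also several genes with no detectable change. Of 16 measured, 3 rose and 3 fell, and 7 of the 10 that did not pass lay below the median signal. The family median was −0.02 log2 as deposited, but 0.05 with quantile normalization and 0.11 after centring each array on the hybridization controls. The gene lips-3 read 9.04, 9.25 and 9.03 log2 in mutants, against 6.41, 7.16 and 6.62 in N2 worms. The gap between the groups was 1.87 log2, with a difference of 2.38 (SE 0.17, 5.20-fold, adjusted p = 1.59e-05).

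The gene lips-9 had 8.24, 8.30 and 8.20 log2 in mutants, against 5.70, 6.28 and 6.09 in N2 worms, a difference of 2.22 (SE 0.13, 4.67-fold, adjusted p = 5.38e-06). It was read from a single probe set with the _s_at ending, so signal from a related transcript cannot be told apart from its own. The values of lips-7 were 8.34, 8.37 and 8.27 in mutants, against 5.92, 6.58 and 6.54 in N2 worms (difference 1.98, SE 0.16, 3.94-fold, adjusted p = 3.21e-05). In each of lips-3, lips-7 and lips-9 wild type replicate 1 was the lowest array, whereas in lipl-1 and lipl-2 it was the highest wild type array.

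Of the falls in this family, lips-15 had 6.84, 6.97 and 6.80 log2 in mutants, against 7.66, 8.23 and 8.24 in N2 worms, a difference of −1.17 (SE 0.15, 2.25-fold lower, adjusted p = 0.000407). The values of lips-10 were 9.72, 9.80 and 9.75 in mutants, against 10.28, 10.63 and 10.26 in N2 worms, a difference of −0.63 (SE 0.10, adjusted p = 0.00169). Its other probe set fell by 0.85 (adjusted p = 0.000309). The fall of lips-16, which RefSeq lists as a pseudogene, was −0.29 (adjusted p = 0.0193) at the 33.2nd percentile of signal. It was lost without mutant replicate 1 or wild type replicate 2 (adjusted p up to 0.0828) and with quantile normalization or centring on the hybridization controls. RefSeq lists 14 protein-coding lips genes against the 16 measured, and 22 protein-coding acs genes against the 23 measured. Thus lips-16 is not the only measured gene outside the protein-coding class.

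**Figure D2:**
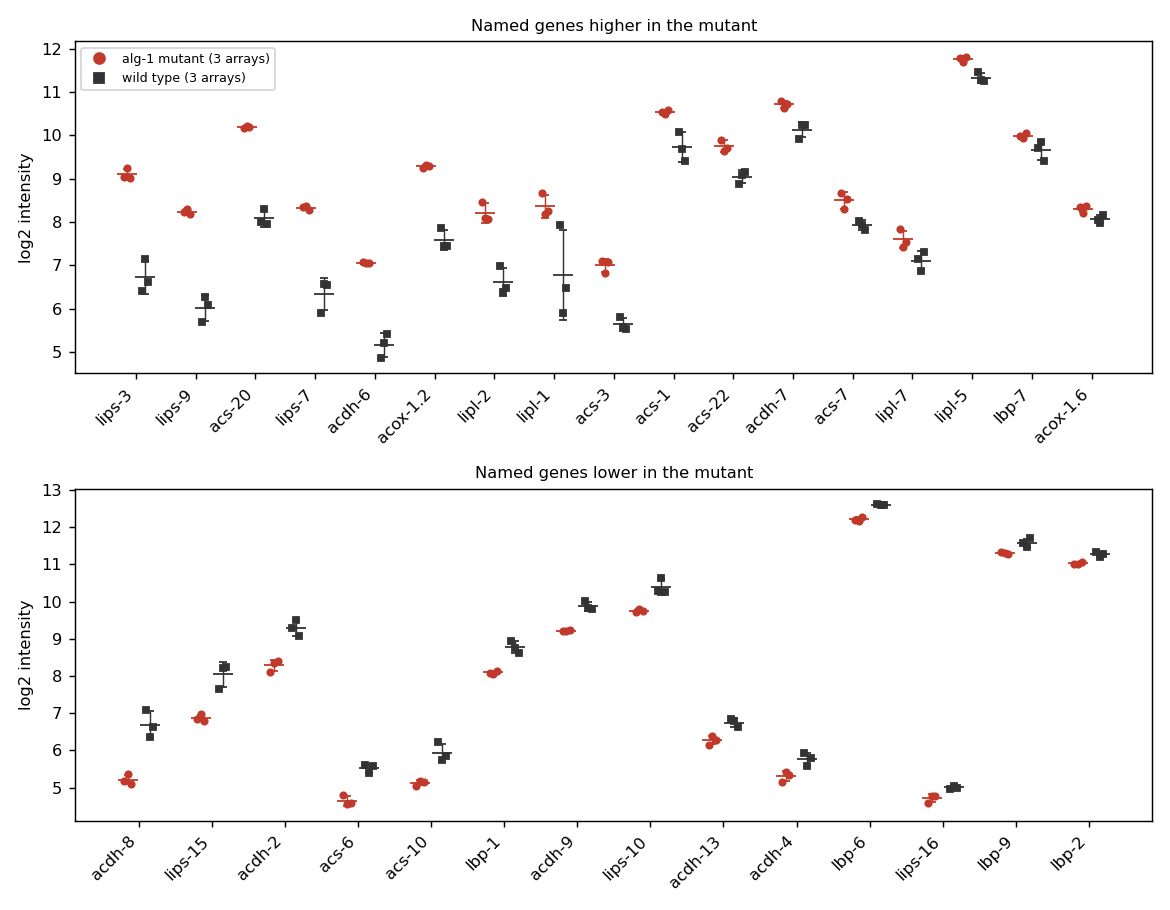
Log2 intensity on each array for the named genes that rose (top) and fell (bottom) in the mutant, with mutant arrays as red circles, wild type arrays as black squares, and bars for mean and SD (n = 3 arrays each). The rule for naming called genes required that mutant and wild type values not overlap, so no gene drawn overlaps. The wild type points of lipl-1 run from 5.91 to 7.94.

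The spread between arrays differed by genotype, and not only in the 73 genes. Over all probe sets, correlations were 0.994 to 0.996 within the wild type and 0.998 within the mutant. For the SDs below, no count over all genes was made. The SD over the 3 wild type arrays was larger than that over the 3 mutant arrays in 56 of the 73 genes, with medians of 0.081 log2 in mutants, against 0.12 in N2 worms. The lipl family was the most variable by this measure, with a median SD of 0.17 in mutants, against 0.25 in N2 worms. For 28 of the 38 called genes the call held whichever array was left out. Of the 9 rises above 1 log2 all but lipl-1 were among them, and over the 8 others (acs-3, acs-20, acdh-6, acox-1.2, lipl-2, lips-3, lips-7 and lips-9) the adjusted p was 0.00105 or lower without any single array.

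**Figure D3:**
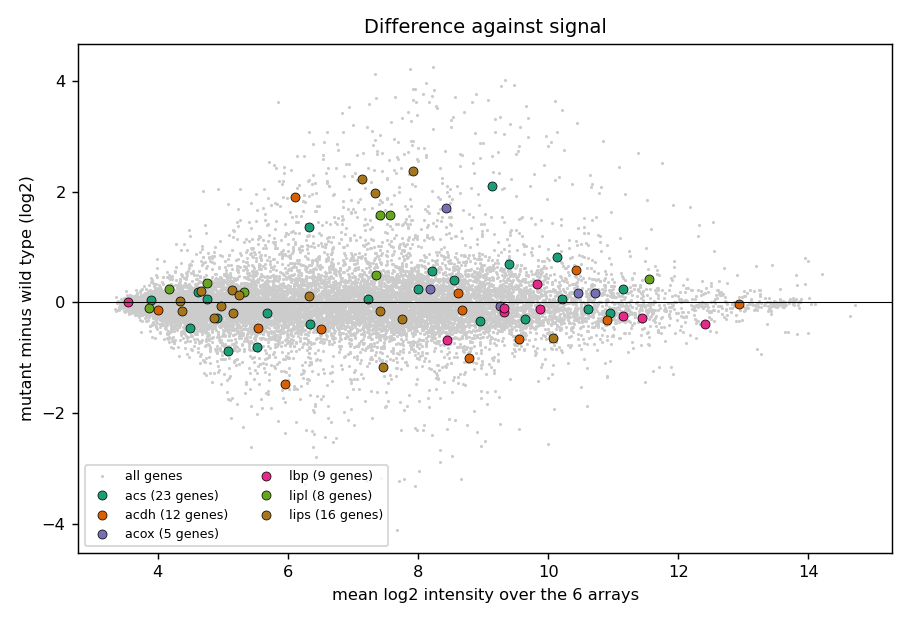
Mutant minus wild type difference (log2, vertical axis) against the mean log2 intensity over the 6 arrays (horizontal axis) for all 17118 genes (grey) and for the 73 genes coloured by family. Of the 73 genes lips-3 lies highest, at 2.38, and acdh-8 lowest, at −1.47.

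Other genes of fatty acid breakdown and storage, from lists chosen by function, moved in both directions. Of 20 genes of mitochondrial beta-oxidation and the carnitine shuttle, 6 rose and 5 fell (median −0.01 log2, or 0.13 on the scale of the hybridization controls, with 7 higher and 3 lower). The rises included carnitine palmitoyltransferase genes, whose products pass activated fatty acids into mitochondria: cpt-4 had 8.56, 8.64 and 8.40 log2 in mutants, against 6.99, 7.49 and 6.90 in N2 worms (difference 1.41, SE 0.15, adjusted p = 0.00014), and cpt-6 rose by 1.07 (adjusted p = 0.00064). Both were read from probe sets with the _s_at ending. By contrast kat-1, the thiolase of the last beta-oxidation step, had 11.61, 11.72 and 11.67 log2 in mutants, against 12.22, 12.21 and 12.25 in N2 worms (difference −0.56, SE 0.067, adjusted p = 0.000312). The isovaleryl-CoA dehydrogenase gene ivd-1, of leucine breakdown, fell by 0.59 (adjusted p = 0.000831).

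Of 20 peroxisomal genes, 3 rose and 5 fell (median −0.11, or 0.03 on that scale, with 5 higher and 3 lower). The peroxisome biogenesis genes prx-11 and prx-3 fell by 1.06 (adjusted p = 1.54e-05) and 0.59 (adjusted p = 0.000837), and pmp-5, which encodes a peroxisomal ABC transporter, fell by 0.80 (adjusted p = 0.000602). The gene ech-9, of the enoyl-CoA hydratase family, rose by 0.87 (adjusted p = 0.000972) at a signal below the median. Of 19 genes of fat storage and neutral lipid turnover, 5 rose and 6 fell (median −0.01, or 0.13 on that scale, with 8 higher and 4 lower). The fatty acid synthase gene fasn-1 had 11.68, 11.57 and 11.79 log2 in mutants, against 10.85, 10.24 and 10.48 in N2 worms (difference 1.16, SE 0.14, adjusted p = 0.000333). The hormone-sensitive lipase gene hosl-1 rose by 0.70 (adjusted p = 0.000175) and the acyltransferase gene acl-12 was 2.14-fold higher (adjusted p = 0.000299), while acl-7, another acyltransferase gene, fell by 0.91 (adjusted p = 2.26e-05).

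Of 16 genes that regulate fatty acid breakdown, 6 rose and 1 fell (median 0.12), against 4 higher and 2 lower with quantile normalization. The nuclear receptor gene nhr-49, a regulator of beta-oxidation genes and of acs-2, read 10.25, 10.06 and 10.24 log2 in mutants, against 9.62, 9.66 and 9.60 in N2 worms. This was a difference of 0.56 (SE 0.075, adjusted p = 0.000616) with no overlap. The FoxA gene pha-4 rose by 0.47 (adjusted p = 0.000973), though its probe set without a shared ending gave 0.06 (adjusted p = 0.569), and the nuclear receptor gene nhr-66 rose by 0.49 (adjusted p = 0.0036). The SREBP gene sbp-1, a regulator of fat synthesis, fell by 0.53 (adjusted p = 0.0028).

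Markers of tissues and of the molting cycle differed between the same samples. RNA of whole worms cannot tell fewer cells of a type from less RNA per cell. Of 6 molting cycle genes all rose, and their mean was 10.94 to 11.07 log2 on the mutant arrays and 8.29 to 8.84 on the wild type arrays. Of 6 epidermal markers 4 rose, with means of 10.27 to 10.41 in the mutant and 8.67 to 8.91 in the wild type. The markers differed among themselves and are named here after their values were seen. The rises were wrt-2 (3.64), rol-6 (2.71), dpy-7 (2.21) and lin-26 (0.90), while elt-1 (0.04) and elt-3 (−0.12) did not pass. The intestinal markers, from the tissue in which much fat is stored, had means of 10.11 to 10.16 in the mutant and 10.15 to 10.28 in the wild type, with 1 of 8 higher and 3 lower. All 6 germline markers and all 7 sperm markers fell (5 and 6 of them on the scale of the hybridization controls), with germline means of 8.58 to 8.73 in mutants, against 9.33 to 9.47 in N2 worms, and sperm means of 5.40 to 5.51 in mutants, against 6.41 to 6.53 in N2 worms. Of 6 neuronal markers 2 rose, with means of 8.22 to 8.26 in mutants, against 7.99 to 8.08 in N2 worms. None of 5 body wall muscle markers passed in the limma fit, and 1 had an unadjusted p below 0.05. Within the wild type, replicate 1 had the molting genes 0.35 log2 above the mean of its group, and of the 18 fatty acid genes that rose it was the highest wild type array for 7 and the lowest for 7. The part of these shifts in the differences of the fatty acid genes was not tested.

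**Figure D4:**
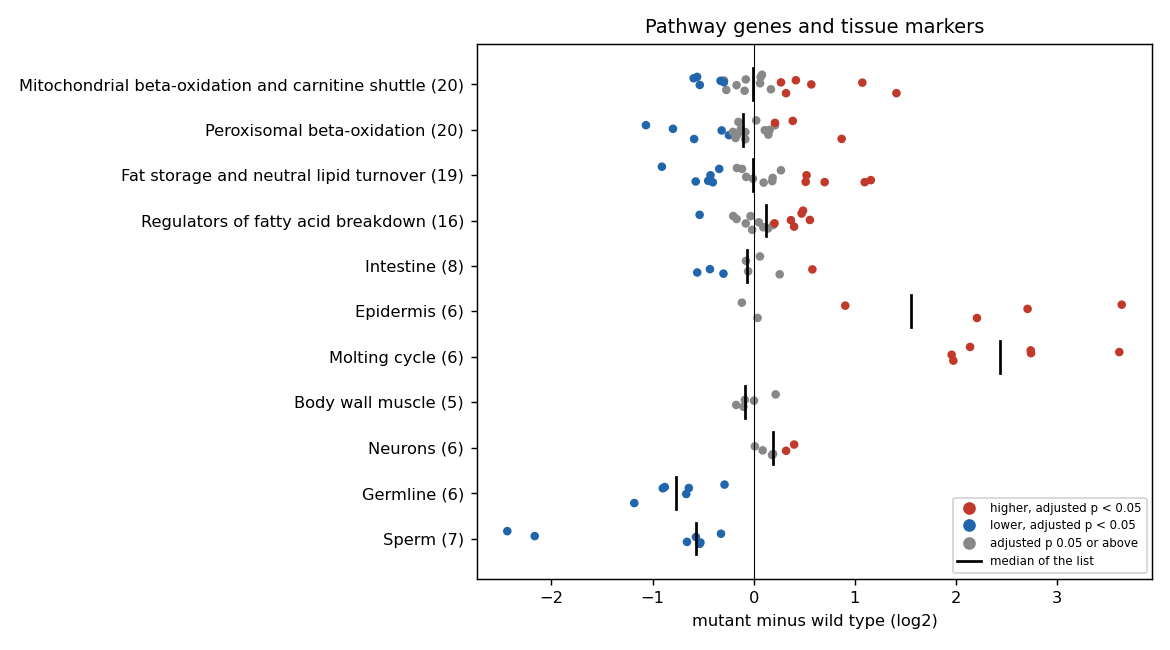
Mutant minus wild type difference (log2) of each measured gene in the pathway lists (upper 4 rows) and in the lists of tissue and molting markers (lower 7 rows), with the number of genes in brackets and a black bar at the median. Red points were higher and blue points lower at an adjusted p below 0.05; the molting genes lie at 1.96 log2 and above, while the 4 pathway lists hold both rises and falls.

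Position in the genome was compared by gene order alone. Only protein-coding genes and pseudogenes were counted in that order. In the RefSeq table of assembly WBcel235, 18 of the 73 genes have another of the 73 with at most 3 genes between, in 10 pairs of neighbours. In 2 of these pairs both genes were called, and in both cases both fell: lbp-1 with lbp-2, which are adjacent, and lips-15 with lips-16. Since 52.1% of the 73 genes were called, some pairs with both called can arise whatever the position. A link to position was not tested. In the adjacent pair acox-1.1 and acox-1.2 the differences were −0.07 and 1.70, as given above. The adjacent genes lips-11, lips-12 and lips-13, named for their position, differed by −0.07, 0.14 and −0.18, and none passed.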

How the data were processed

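The authors deposited log2 intensities, 1 per probe set and array. Affymetrix Power Tools was used, per the submitters' processing notes, and the sources used here do not give its normalization settings. Their scale was inferred from the values (3.14 to 14.9). Array medians were 6.01 to 6.05, so the values were used as deposited.

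The 77 control probe sets were left out, and 22548 of 22625 were tested. Names came from the platform annotation, matched by gene identifier to RefSeq (20701 probe sets); 20766 probe sets had 1 symbol, 887 several and 895 none. Mutant minus wild type was fitted with limma 3.58.1 (R 4.3.3; lmFit, eBayes), two-sided, with Benjamini-Hochberg adjustment over all probe sets and a threshold of 0.05; every adjusted p is from limma. The number of arrays limits the precision, and an exact permutation test of 3 against 3 cannot go below p = 0.1. On simulated data for this comparison with 22548 probe sets, the fit recovered 56.7% of changes of 0.5 log2, 91% of 1 log2 and 100% of 2 log2. Only 67, 67 and 66 probe sets were given these changes, far fewer than the 7591 that passed in the data. The adjusted threshold was therefore harder to reach in the simulation, and these shares need not hold for the data.

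Named by rule were up to 7 called genes per family without overlap between genotypes, the gene of highest mean signal, acs-20, lips-9, alg-1 and up to 4 genes per pathway list; others are marked. The families, lists and tests were chosen with earlier results of these data known. Alternatives were 3 scalings, 2 signal filters, another prior, array weights, removal of shared probe sets, a threshold of 0.01, a replicate block, averaging a gene's probe sets, and leaving out each array. Protein and promoter sequences were not used here.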

Additional observations from a re-analysis of the deposited data

How the results depend on the processing

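Over 17 alternatives, 23 of the 38 called genes (13 higher, 10 lower) passed the threshold with the same sign wherever they were tested, and no called gene changed sign. The number of the 73 genes called higher was 18 as reported and 13 to 18 when 1 array was left out, and the number called lower was 20 as reported and 16 to 20. Centring on the hybridization controls left 10 genes lower, and the filter at the median left 13 lower because only 49 of the 73 genes remained in the test. Over all probe sets 7591 passed, against 5443 to 7833 when 1 array was left out, 4715 without probe sets ending in _s_at or _x_at, where 15837 were tested, and 4767 at a threshold of 0.01. The scale of the hybridization controls gave 69.6% of all called probe sets as rises, against 44% as deposited; the cause was not tested. Deviations of same-numbered arrays correlated at 0.21, 0.13 and 0.081. Differently numbered pairs ran from −0.20 to 0.10 and were mostly negative, though wild type replicate 3 correlated better with mutant replicate 2 (0.10). These weak correlations do not settle whether the replicate numbers pair the arrays. With the replicate number as a block, 20 of the 73 genes were higher and 20 lower, and 7766 probe sets passed; lipl-4 and lipl-6 were gained and none lost. Dim probe sets limit the rest: 24 of the 73 genes lay at or below the median signal. Of these 24 genes, 7 were called, and all 7 were falls. Over all genes, 2466 rose and 3449 fell, and 1896 and 2296 of these lay above the median signal. Falls were thus also the larger part of the 1723 calls of all genes below it. Signal is a mean over both genotypes, so a gene's own rise can lift it above the median. The direction of the dim calls is therefore not independent of the differences.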
